A study of Homo sapiens with 6 samples.

Results

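The genes described here are 31 members of cholesterol and fatty acid synthesis, out of 20660 gene names in the authors' deposited table. They were chosen by name and grouped by role into 16 cholesterol synthesis enzymes, 6 genes for regulation and sterol transport, and 9 fatty acid genes. RNA sequencing compared FaDu cells given the compound BB608 with FaDu cells given DMSO, a solvent in common use as a vehicle, with 3 libraries per group. FaDu is 1 established squamous carcinoma line of hypopharyngeal origin, and no label states the dose, the treatment time or the growth medium. All libraries were made from total RNA with a stranded kit that removes ribosomal RNA, so sequences without a poly(A) tail were also read. The table gives 1 FPKM value per coding sequence and group, so no value per library, no SD and no depth can be given. Its columns call each group a subset, a word that no label explains, so whether all 3 libraries of a group entered a value is not known. FPKM scales fragments by sequence length and library size, so it is a level per length.

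Cells make cholesterol from acetyl-CoA through mevalonate, farnesyl diphosphate and squalene, and fatty acids from the same acetyl-CoA through malonyl-CoA. Both routes are induced by the sterol regulatory element-binding proteins, made from SREBF1 and SREBF2. Their carrier SCAP takes them out of the endoplasmic reticulum when sterols are low, and the INSIG proteins hold SCAP back when sterols are high. The product of SREBF2 is best known for driving cholesterol genes, and forms from SREBF1 for driving fatty acid genes. FASN, the fatty acid synthase, is often abundant in squamous carcinomas.

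With BB608, FASN was the only member with a called change, and it rose. Its main coding sequence was at 49.9 FPKM in BB608, against 35.5 FPKM in DMSO, or 0.49 log2 higher (implied SE 0.11; Cuffdiff p 5e-05, q 0.0154) in the authors' deposited table. In RNA from whole cultures, changes in the share of expressing cells and in RNA per cell cannot be told apart. The implied SE is derived from the authors' statistic and p and covers only the spread that their model estimated. HMGCS1, the cytosolic HMG-CoA synthase that feeds the mevalonate route, came next. Its main coding sequence was at 13.9 FPKM in BB608, against 19.3 FPKM in DMSO, with a log2 fold of -0.48 (implied SE 0.14; p 0.00045). Its q was 0.108, so it was not called. Recomputed under the alternatives tried, the q ran from 0.0165, over genes with 1 tested sequence alone, to 0.102, and that first setting, chosen after seeing the data, would call it. INSIG1, the feedback brake on SCAP, had the next lowest p, 0.00545, with a q of 0.646 and a log2 fold of -0.90 for 1 of its coding sequences.

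A sequence was called changed where the authors' Cuffdiff q was under 0.05. That held for 1 of the 112 tested member sequences, or 0.893%, against 0.354% of all 34474 tested sequences in either direction and 0.142% called higher in BB608. With 1 call, the difference between these shares carries no weight. At an unadjusted p under 0.05 there were 7 member sequences of 6 genes, or 6.25%, against 3.31% of all tested sequences. The 3 that were higher in BB608 belonged to FASN, ACLY and SREBF2, and the 4 that were lower belonged to HMGCS1, INSIG1 with 2, and LPIN1. Among all tested sequences 1.8% were higher and 1.51% lower at that p. Only FASN stayed past the adjustment, and 107 of the 112 member sequences shared a q of 0.997.

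**Figure D1:**
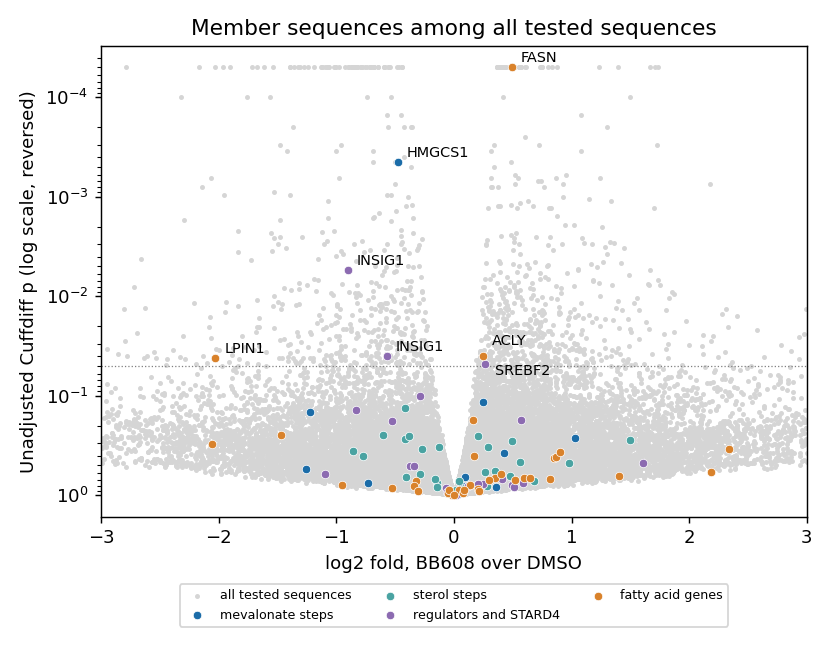
Each point is a tested coding sequence with a usable error, with the log2 fold of BB608 over DMSO on the x axis and the unadjusted Cuffdiff p on a reversed log y axis; grey points are all tested sequences, coloured points the members by role, and the dotted line marks 0.05. FASN lies at the smallest p of the table, 5e-05, on the higher side, HMGCS1 at 0.00045 on the lower side, and 6 such member sequences with folds beyond 3 in size lie outside the drawn range, and 6 more, near 0 FPKM in 1 group and without a usable error, are not drawn.

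Among the 7 genes of the mevalonate steps, none was called by Cuffdiff's q, and 1 had a sequence at an unadjusted p under 0.05. Gene sums, which add up the FPKM of every coding sequence under a gene name, were higher in BB608 for 3 and lower for 4. HMGCS1 had a gene sum of 14.01 FPKM in BB608, against 19.6 FPKM in DMSO, a ratio of 0.713. A 95% interval from the implied SE of its main sequence ran from -0.75 to -0.21 on the log2 scale. That sequence holds 99.0% of the gene sum in BB608 and 98.4% in DMSO. It lies at 43287703 to 43313614 on chromosome 5 of hg19, with no other gene name at it in the table.

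Between HMGCS1 and FDPS, the steps MVK, PMVK, MVD and IDI1 had smaller gene sum folds, none called. MVK, mevalonate kinase, had 9.95 FPKM in BB608 and 10.1 FPKM in DMSO, and MVD, the mevalonate diphosphate decarboxylase, had 4.83 FPKM in BB608 and 4.45 FPKM in DMSO. PMVK, the phosphomevalonate kinase, has a single coding sequence, at 3.35 FPKM in BB608 and 2.82 FPKM in DMSO, a log2 fold of 0.25 (implied SE 0.16). IDI1, the isopentenyl diphosphate isomerase, had 21.6 FPKM in BB608 and 20.4 FPKM in DMSO, and all 3 of its tested sequences were slightly higher in BB608, by 0.03 to 0.21 log2.

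FDPS and ACAT2 had the lowest gene sums of all 31 members by the mean of both groups. FDPS, the farnesyl diphosphate synthase, was listed at 0.433 FPKM in BB608 and 1.04 FPKM in DMSO, a log2 fold of -1.26 whose implied SE of 1.91 exceeds it. ACAT2, the cytosolic acetoacetyl-CoA thiolase, had a gene sum of 0.803 FPKM in BB608 and 1.18 FPKM in DMSO, with -0.73 (implied SE 1.79) for its tested sequence in the authors' deposited table. FDPS has processed pseudogenes and shares its locus in the table with RUSC1, and the ACAT2 locus is merged with SOD2, TCP1 and WTAP. Levels of such genes depend on how shared or overlapping reads were assigned, so both are uncertain.

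The 9 sterol steps from squalene onward had no call by Cuffdiff's q and no sequence at an unadjusted p under 0.05 among 33 tested, and 4 gene sums were higher and 5 lower in BB608. SQLE, the squalene epoxidase and a rate-limiting enzyme of this branch, was the most abundant of them at 68.3 FPKM in BB608 and 73.2 FPKM in DMSO. Its main sequence had a log2 fold of -0.12 (implied SE 0.13), with a 95% interval from -0.38 to 0.13. CYP51A1, the lanosterol demethylase, had 53.9 FPKM in BB608 and 57.1 FPKM in DMSO, and its main sequence had 0.02 (implied SE 0.11) with an interval from -0.20 to 0.23. NSDHL, a decarboxylating sterol dehydrogenase, had 11.2 FPKM in BB608 and 11.5 FPKM in DMSO, with 0.05 (implied SE 0.13) for its main sequence. These intervals leave no room for a change of 1 log2 in those main sequences.

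Squalene synthase, FDFT1, had 42.0 FPKM in BB608 and 45.1 FPKM in DMSO. Its 7 tested sequences had folds from -0.86 to 0.49, 2 higher and 5 lower. EBP, the sterol isomerase, had 41.4 FPKM in BB608 and 33.0 FPKM in DMSO, 25.6% higher in BB608, with 0.29 (implied SE 0.29) for its main sequence. DHCR7, the dehydrocholesterol reductase at the end of the route, had 34.8 FPKM in BB608 and 31.0 FPKM in DMSO. LSS, lanosterol synthase, had 4.98 FPKM in BB608 and 4.29 FPKM in DMSO. HSD17B7, a sterol ketone reductase with a closely related pseudogene, had 5.75 FPKM in BB608 and 7.12 FPKM in DMSO.

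TM7SF2, a sterol reductase, had the largest gene sum fold of the members, at 1.76 FPKM in BB608 and 0.719 FPKM in DMSO, a log2 fold of 1.30. One of its tested sequences is listed at 0.958 FPKM in BB608 and 1.15e-30 FPKM in DMSO, and the other at 0.736 FPKM in BB608 and 0.605 FPKM in DMSO, with p values of 0.355 and 0.813 in the authors' deposited table. The fold thus comes from 1 low sequence, and 4 other gene names share the locus.

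**Figure D2:**
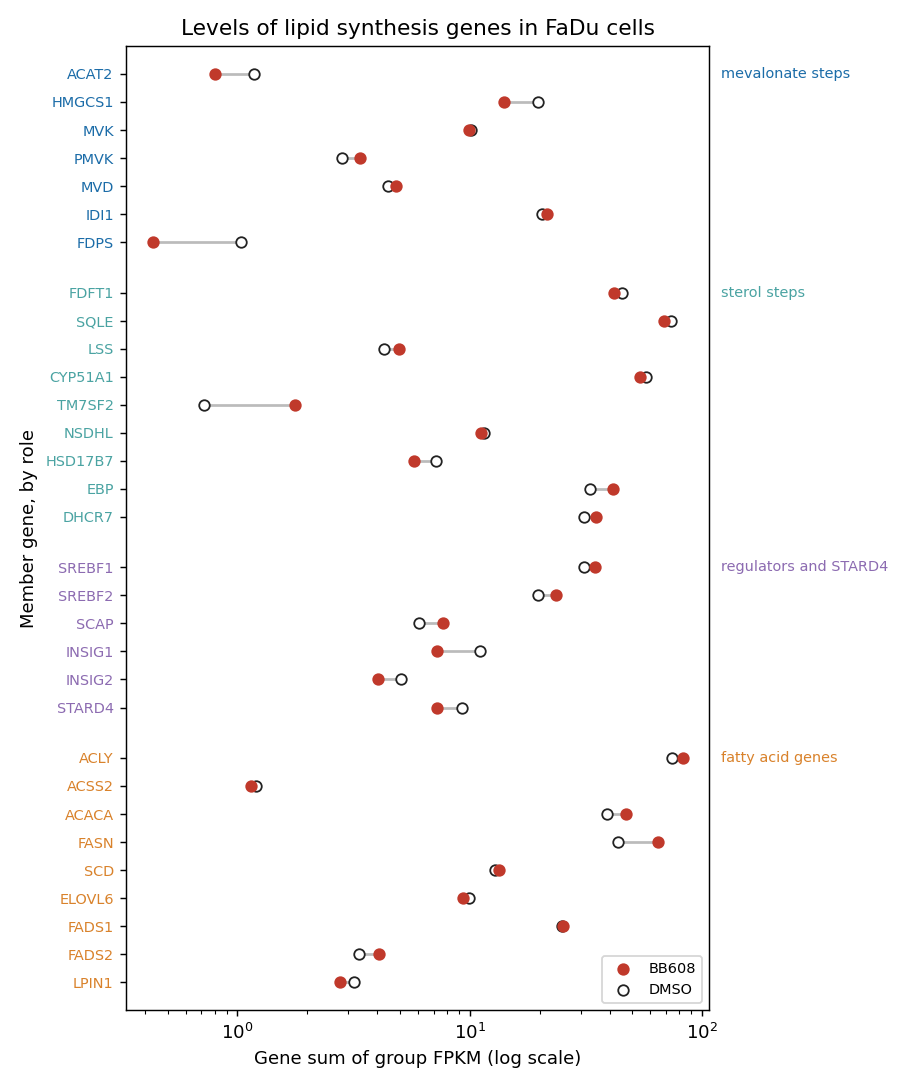
Gene sums of group FPKM on a log x axis for the 31 members by role, with filled points for BB608, open points for DMSO and a grey line joining them; each point is the authors' 1 value for a group, so no error is drawn. FASN is at 65.0 FPKM in BB608 and 43.5 FPKM in DMSO, HMGCS1 at 14.01 FPKM in BB608 and 19.6 FPKM in DMSO, and the widest gaps on this scale, TM7SF2 and FDPS, are near 1 FPKM.

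Of the 6 genes for regulation and transport, none was called, and 3 gene sums were higher and 3 lower in BB608. The lower ones were both INSIG genes and STARD4. INSIG1 had a gene sum of 7.24 FPKM in BB608, against 11.1 FPKM in DMSO, a ratio of 0.655. Its 2 main sequences were at 3.64 FPKM in BB608 against 5.40 FPKM in DMSO, and at 2.36 FPKM in BB608 against 4.41 FPKM in DMSO. Their log2 folds were -0.57 (implied SE 0.27; p 0.0399, q 0.997) and -0.90 (implied SE 0.31; p 0.00545, q 0.646) in the authors' deposited table. A lesser sequence had 1.24 FPKM in BB608 and 1.08 FPKM in DMSO, with an implied SE of 0.75. INSIG1 lies at 155089486 to 155101945 on chromosome 7 of hg19, with no other gene name at it.

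INSIG2, the second anchor of SCAP, had 4.03 FPKM in BB608 and 5.08 FPKM in DMSO, with -0.29 (implied SE 0.18; p 0.101, q 0.997) for its 1 tested sequence. STARD4, a soluble cholesterol carrier, had 7.21 FPKM in BB608 and 9.23 FPKM in DMSO. Of its 4 tested sequences 3 were lower and 1 was higher in BB608, with folds from -0.83 to 0.20 and none with a p under 0.05.

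The transcription factor genes and their carrier were higher in BB608 by gene sum. SREBF2 had 23.6 FPKM in BB608 and 19.7 FPKM in DMSO, with 0.27 (implied SE 0.14; p 0.0478, q 0.997) for its main sequence. SREBF1 had 34.6 FPKM in BB608 and 31.1 FPKM in DMSO, and of its 9 tested sequences 6 were higher and 3 lower, with folds among those with a usable error from -1.10 to 1.60. Its share of the summed FPKM of both factors was 59.4% in BB608 and 61.2% in DMSO. SCAP had 7.64 FPKM in BB608 and 6.05 FPKM in DMSO, but its main sequence had a log2 fold of 0.02 with an implied SE of 1.16.

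Promoters are shown for the members of at least 5 FPKM in both groups that had a sequence at an unadjusted p under 0.05; only the q of FASN passed, so these genes are shown as those with the lowest p and not as changed ones. The sequences at that p were lower in BB608 for HMGCS1 and INSIG1, and higher for SREBF2 and ACLY. FASN met the same terms and has no entry among the RefSeq promoters used. Each run is the 250 bases before the most upstream start site in the RefSeq table (GRCh38.p14), read 5′ to 3′ on the gene's strand. Capitals mark matches on either strand to the sterol regulatory element TCACNCCAC, the NF-Y box CCAAT, the Sp1 box GGGCGG and the E-box CACGTG, each a binding motif of a factor known from sterol or lipid gene promoters.
HMGCS1 chr5:43313413-43313662 (- strand): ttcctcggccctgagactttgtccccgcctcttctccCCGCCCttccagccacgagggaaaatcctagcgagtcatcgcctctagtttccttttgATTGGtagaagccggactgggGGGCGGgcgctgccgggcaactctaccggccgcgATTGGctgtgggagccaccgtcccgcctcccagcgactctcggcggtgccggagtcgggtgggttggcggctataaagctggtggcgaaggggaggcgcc
INSIG1 chr7:155297628-155297877 (+ strand): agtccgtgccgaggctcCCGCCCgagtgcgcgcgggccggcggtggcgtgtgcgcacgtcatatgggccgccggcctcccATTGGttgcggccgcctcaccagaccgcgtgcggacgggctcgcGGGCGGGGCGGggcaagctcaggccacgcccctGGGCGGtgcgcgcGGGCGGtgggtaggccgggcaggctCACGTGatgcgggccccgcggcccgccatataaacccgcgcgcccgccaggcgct
SREBF2 chr22:41832855-41833104 (+ strand): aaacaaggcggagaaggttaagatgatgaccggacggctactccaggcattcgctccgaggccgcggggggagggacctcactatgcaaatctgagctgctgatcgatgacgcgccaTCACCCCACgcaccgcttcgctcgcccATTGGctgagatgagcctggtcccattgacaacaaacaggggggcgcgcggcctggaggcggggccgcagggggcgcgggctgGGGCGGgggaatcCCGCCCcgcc
ACLY chr17:41919023-41919272 (- strand): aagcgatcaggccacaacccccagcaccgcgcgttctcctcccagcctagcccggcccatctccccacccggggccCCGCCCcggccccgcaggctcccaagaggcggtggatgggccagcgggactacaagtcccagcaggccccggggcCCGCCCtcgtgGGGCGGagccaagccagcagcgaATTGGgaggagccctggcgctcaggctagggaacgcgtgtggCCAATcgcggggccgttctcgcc
These coordinates are on another build than the hg19 loci above and cannot be set beside them.

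The HMGCS1 run holds NF-Y boxes that begin 155 and 100 bases before the start site, with Sp1 boxes at 213 and 134. INSIG1 has an NF-Y box at 170, an E-box at 55 and Sp1 boxes at 233, 126, 121, 93 and 80, of which those at 126 and 121 overlap by 1 base. In SREBF2 the full sterol element lies at 133 and an NF-Y box at 106. ACLY has NF-Y boxes at 65 and 23. SREBF2 was the 1 gene among 27 matched members with TCACNCCAC in the 250 bases searched. That is a share of 3.70%, against 1.19% of 15843 protein-coding genes in the table. With 1 gene, the difference between these shares carries no weight, and no link to the direction of a fold was tested. Variants of the element and sites outside these bases were not searched.

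The NF-Y box was in 18 of the 27 matched members, or 66.7%, against 40.2% of the coding genes. By role it was in 11 of 13 cholesterol enzymes, 4 of 8 fatty acid genes and 3 of 6 regulatory genes. The Sp1 box was in 96.3% of members and 62.1% of coding genes, and the E-box in 7.41% of members and 9.73% of coding genes. Where a gene has several promoters in the table, a match in any of them counted, for members and for all genes alike. Among the promoters printed, an NF-Y box occurs with genes of both directions. A match is only a match of letters in this window.

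Of the 9 fatty acid genes, FASN rose and the other 8 were not called, and by gene sum 6 were higher and 3 lower in BB608. The FASN gene sum was 65.0 FPKM in BB608, against 43.5 FPKM in DMSO, 49.4% higher. Both of its tested sequences were higher in BB608. The main one, with a 95% interval from 0.28 to 0.70 on the log2 scale, is described above. The second was at 15.04 FPKM in BB608 and 8.03 FPKM in DMSO (log2 fold 0.91, implied SE 1.03, p 0.367, q 0.997). The FASN p is at the smallest value Cuffdiff gave here, shared by 112 sequences, so its rank among them is not resolved. FASN lies at 80036097 to 80056208 on chromosome 17 of hg19, and its locus holds no other gene name.

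The enzymes that supply FASN had smaller differences, none called. ACLY, the ATP citrate lyase that makes cytosolic acetyl-CoA, was the most abundant member at 82.6 FPKM in BB608 and 74.6 FPKM in DMSO. Its main sequence was at 46.2 FPKM in BB608, against 38.9 FPKM in DMSO (0.25 log2 higher, implied SE 0.12; p 0.0398, q 0.997). ACACA, the acetyl-CoA carboxylase that makes malonyl-CoA, had 47.2 FPKM in BB608 and 39.1 FPKM in DMSO. Of its 12 tested sequences 9 were higher and 3 lower, none with a p under 0.05. ACSS2, the acetate-activating synthetase, had 1.14 FPKM in BB608 and 1.196 FPKM in DMSO.

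None of the genes that modify fatty acids was called. SCD, the stearoyl-CoA desaturase, had 13.3 FPKM in BB608 and 12.9 FPKM in DMSO, a gene sum fold of 0.05 that turned to -0.0011 after quantile normalization. ELOVL6, a fatty acid elongase, had 9.39 FPKM in BB608 and 9.96 FPKM in DMSO. Its main sequence alone was higher, at 9.08 FPKM in BB608 and 8.10 FPKM in DMSO (log2 fold 0.16, implied SE 0.12), and a lesser one was listed at 2.53e-13 FPKM in BB608 and 1.06 FPKM in DMSO.

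FADS1 and FADS2, the desaturases of polyunsaturated fatty acids, lie in 1 merged locus with 5 further gene names. FADS1 had 25.2 FPKM in BB608 and 25.02 FPKM in DMSO, and FADS2 had 4.08 FPKM in BB608 and 3.35 FPKM in DMSO. Their main sequences had implied SEs of 1.18 and 1.03, so a change of 1 log2 would not show. LPIN1, a phosphatidate phosphatase, had 2.77 FPKM in BB608 and 3.17 FPKM in DMSO. Its 5 tested sequences went opposite ways, with 1 at 0.239 FPKM in BB608 and 0.974 FPKM in DMSO (log2 fold -2.03, implied SE 0.71; p 0.0416, q 0.997) and 1 listed at 0.711 FPKM in BB608 and 8.98e-96 FPKM in DMSO.

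**Figure D3:**
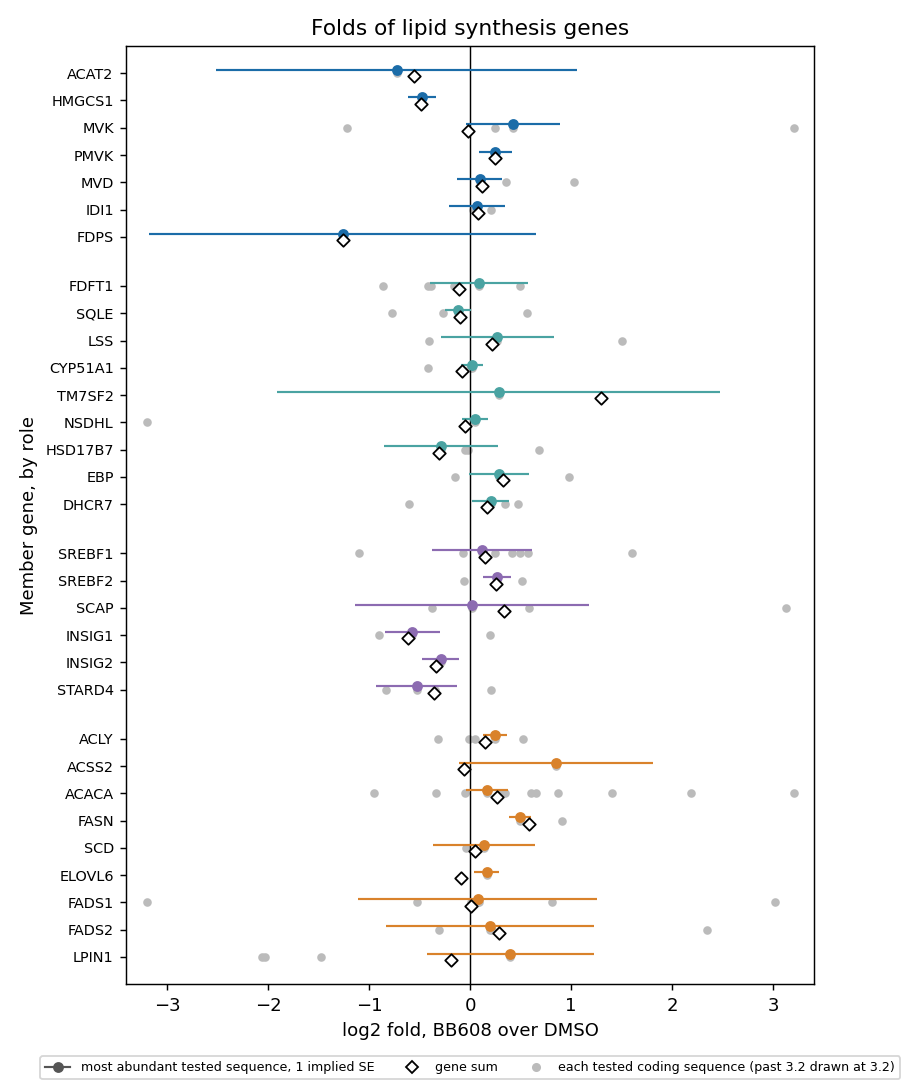
The log2 fold of BB608 over DMSO for each member, with a coloured point and a bar of 1 implied SE for its most abundant tested sequence, a diamond for the gene sum, and grey points for every tested sequence with a usable error; the 4 folds past 3.2 in size are drawn at 3.2. The bar of FASN (0.49 ± 0.11) lies above 0 and that of HMGCS1 (-0.48 ± 0.14) below it, while the bars of FDPS, TM7SF2 and ACAT2 reach more than 1 log2 to each side of their points.

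The contrast of the routes was small by group medians and larger between FASN and HMGCS1, which were picked for their values. How much of the contrast rests on them was not tested. The median log2 fold of gene sums was -0.03 over the 16 cholesterol enzymes and 0.05 over the 9 fatty acid genes, against 0.03 over 10859 genes of at least 1 FPKM. The difference of the 2 medians was -0.08, and no error of this difference can be given. The most abundant sequences of the cholesterol and fatty acid genes had median implied SEs of 0.28 and 0.51. Those are errors of single sequences and do not measure the spread of a median of gene sums. Without FASN the fatty acid median was 0.03. The regulatory genes had a median of -0.09 with values in 2 sets, 3 from -0.61 to -0.33 and 3 from 0.15 to 0.34.

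Summed FPKM gave 319.0 in BB608 and 322.8 in DMSO for the cholesterol enzymes, a log2 ratio of -0.02. For the fatty acid genes it gave 250.6 in BB608 and 212.8 in DMSO, a log2 ratio of 0.24, and 0.13 without FASN. Apart from FASN, ACLY and ACACA, neither called, were each 8.03 FPKM higher in BB608. The remaining fatty acid genes differed by -0.57 FPKM (ELOVL6) to 0.73 FPKM (FADS2), BB608 minus DMSO. FASN carried 4.64 times the gene sum of HMGCS1 in BB608 and 2.21 times in DMSO. The log2 folds of their main sequences differed by 0.97, with an SE of 0.17 if their errors are independent, in a pair that stands out because of these values, so no test is given.

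A bound of 0.3 log2, chosen after the values were seen, was passed by 11 gene sums. The 7 lower ones, 22.6% of members against 9.94% of all genes kept, were HMGCS1, INSIG1, INSIG2, STARD4, HSD17B7, ACAT2 and FDPS. The 4 higher ones, 12.9% of members against 14.5% of all genes kept, were FASN, EBP, SCAP and TM7SF2. By direction alone, 51.6% of member gene sums were higher in BB608, against 57.6% of all genes kept. All 31 members reached 1 FPKM in BB608 or DMSO, and 28 reached it in both. TM7SF2 reached it in BB608 only, and ACAT2 and FDPS in DMSO only. Each of these passed the filter only through the group where it was higher, so its place past the bound is partly built in. The shares above count these genes and were not tested.

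**Figure D4:**
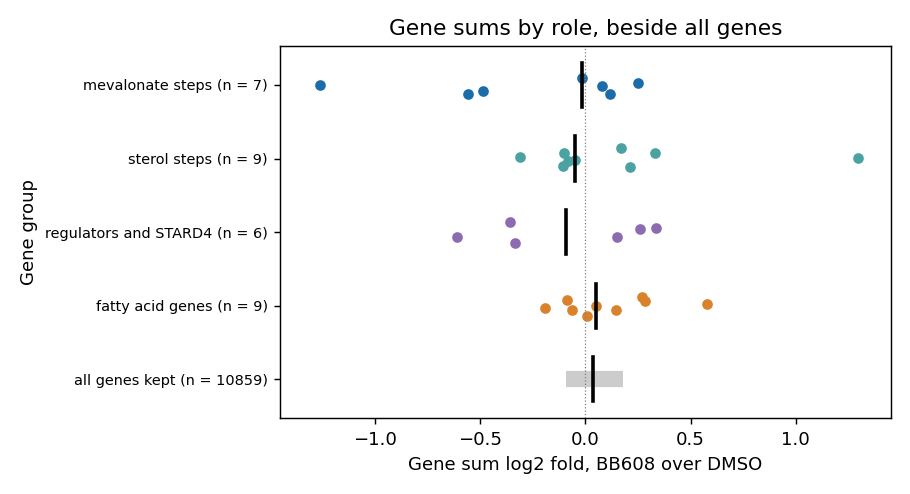
Gene sum log2 folds of BB608 over DMSO by role, 1 point per member with vertical jitter, a black bar at each median, and a grey band for the middle 50% of all genes kept. The medians lie between -0.09 and 0.05, beside 0.03 for all genes kept, and the spread within each role is wider than the gaps between medians.

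Coding sequences of 1 gene often disagreed. Of the 25 members with more than 1 tested sequence, 22 had some higher and some lower in BB608, and IDI1, FASN and TM7SF2 had all on the higher side. Tested member sequences had a median implied SE of 0.84, against 0.68 for all tested sequences, so most could not show a change of the size seen in FASN. The most abundant sequence per gene was more precise, with a median of 0.29 and with 11 of 31 under 0.20. For MVK, FDFT1, CYP51A1, NSDHL, ACSS2, ELOVL6 and LPIN1 that sequence had the opposite sign to the gene sum, so their direction depends on the summary used.

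Other genes of sterol uptake, lipid synthesis and SREBP processing showed no call. The listed genes of sterol export had no tested sequence, so no call was possible for them. Of 38 listed names, with older and newer symbols counted apart, 35 were in the table and 30 had a tested sequence. None of their 101 tested sequences passed Cuffdiff's q or an unadjusted p under 0.05, against 3.31% of all tested sequences. The 30 gene sums had a median log2 fold of -0.02, with 12 higher and 18 lower in BB608. The most abundant were NPC2, which carries cholesterol out of lysosomes, at 394.0 FPKM in BB608 and 410.7 FPKM in DMSO, and ACSL3, a long-chain acyl-CoA synthetase, at 150.5 FPKM in BB608 and 137.6 FPKM in DMSO.

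Marker levels fit a squamous epithelial line. The 6 epithelial markers were KRT5, KRT14, KRT6A, TP63, EPCAM and CDH1. They summed to 2692 FPKM in BB608 and 2541 FPKM in DMSO, most of it the basal keratin KRT5. Of 3 fibroblast markers the highest, COL1A1, was at 0.690 FPKM in BB608 and 0.541 FPKM in DMSO. Blood, endothelial and hepatocyte markers found in the table each summed to less than 0.1 FPKM in both groups, and CD3E was listed at 0 in both. Nothing in the sources says whether the 3 libraries of a group came from separate cultures beyond the word biological, and 1 value per group cannot show which library, if any, sets a fold.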

How the data were processed

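RNA was sequenced from FaDu cells, 3 libraries with BB608 and 3 with DMSO. The submitters' processing notes name TopHat2 2.0.11, Cufflinks 2.2.1, Cuffdiff and the genome build hg19, and no source used here names the annotation. The deposited values are FPKM per coding sequence, 1 per group. The authors' deposited table also gives per sequence its log2 fold, its p-value with the adjusted q-value, and a test score. The q matched a Benjamini-Hochberg adjustment over all 34474 tested rows to within 5.23e-07.

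Gene sums add FPKM over coding sequences, and their log2 ratio uses no pseudocount. Genes with a tested sequence, a single name, no failed row and a sum of 1 FPKM or more in BB608 or DMSO were kept, 10859 in all. The implied SE is the log2 fold divided by the statistic and by 1.73, the median ratio of the normal quantile of p to the statistic over 33027 rows; it was left out where a group was under 0.001 FPKM. Cuffdiff's q is the only test; limma needs values per library. The calling step was checked on simulated data drawn with the implied SEs, which checks the code and not the authors' Cuffdiff model. Locus starts were raised by 1 base to count from 1. Member promoters came from RefSeq, and 27 of 31 matched.

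All members are named, with other pathway genes by a p under 0.05 or by the 2 highest gene sums. Members and lists were chosen with earlier results of these data known. Python 3.11.15, pandas 2.3.3, NumPy 2.4.6 and SciPy 1.17.1 were used.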

Additional observations from a re-analysis of the deposited data

Results flagged for a closer look

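Some member sequences that the authors did not test are listed near 0 in DMSO and carry a value in BB608. A DHCR7 coding sequence is at 0.510 FPKM in BB608 and 7.56e-46 FPKM in DMSO in the authors' deposited table. A FADS1 coding sequence is at 0.566 FPKM in BB608 and 7.96e-10 FPKM in DMSO in that table. The same genes hold untested sequences that go the other way: a DHCR7 sequence is at 2.03e-61 FPKM in BB608 and 0.212 FPKM in DMSO, and a FADS1 sequence at 1.6e-38 FPKM in BB608 and 0.357 FPKM in DMSO. Both genes have other sequences at higher levels, and their gene sums had log2 folds of 0.17 and 0.01.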

How the results depend on the processing

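No paired analysis was possible because the values analysed are per group, not per library. Leaving out each replicate and a replicate block were not run for the same reason. FASN was the 1 called member sequence among rows with a mean of at least 1 FPKM or at least 5 FPKM, and with normal p-values from the statistic. HMGCS1 then had a recomputed q of 0.0873, 0.0609 and 0.102. Adjusted over genes with 1 tested sequence alone, a setting chosen after seeing the data, HMGCS1 was the 1 call, with a q of 0.0165, and FASN, which has 2, did not enter. The sign of both route medians depended on the setting. The cholesterol median ran from -0.09 after quantile normalization to 0.08 with the most abundant sequence, and the fatty acid median from -0.0011 to 0.20 under the same settings; the cause was not tested. Their difference ran from -0.17, with at least 5 FPKM, to -0.08. Leaving out the 3 lowest cholesterol enzymes, also chosen after seeing the data, gave a median of -0.02. Of 155 settings over member folds, 154 stayed within 1 implied SE of the gene's most abundant sequence. ELOVL6 moved further, to 0.16 with its most abundant sequence. That SE reached 2.19 for TM7SF2. A move of ACSS2 from -0.06 to 0.85 counted as within its SE of 0.96, so the count says little for imprecise genes. In 10 settings an uncalled fold changed sign, in 9 members.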
